A study of Drosophila melanogaster with 3 samples.

Results

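Odorant receptors (Or), gustatory receptors (Gr) and ionotropic receptors (Ir) are the membrane proteins with which flies smell and taste. Members were the protein-coding genes of the dm6 annotation whose symbol begins with Or, Gr or Ir and a digit, with Orco added. They numbered 180 of 13968 protein-coding genes on the 7 chromosome arms, 60 in each family, and 7 pseudogenes with such names were left out. The lists come from ChIP-seq on whole embryos, sexes mixed, 0 to 24 h old, from 1 fly line in which an exon for eGFP was placed in an intron of the Hox gene Antp. The fusion protein was pulled down through its GFP part, although another label names Antp as the antibody, and the chromatin was sonicated to 200 to 800 bp. There was 1 group of 3 biological replicates, each with a ranked list of 30000 entries. A further list of 30000 entries came from the pooled reads, and an IDR list held 4351 peaks selected for reproducible rank. These peaks are also the 4351 strongest pooled entries, and 92.0% of them had a summit within 100 bp in all 3 replicate lists. Control immunoprecipitations and untagged flies were not analysed here, and the lists give no read totals, so the depth is unknown.

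In insects an odorant receptor works as a channel together with Orco, and an ionotropic receptor works with one of a few broadly expressed partners such as Ir8a, Ir25a or Ir76b. Gustatory receptors include those for sugars, for bitter compounds and, in the antenna, for carbon dioxide. Most receptors other than these partners are made in small sets of sensory neurons, and sensory neurons form a minor part of a whole embryo. Which receptors were made in these embryos was not measured here. Binding in few cells and weak binding in many cannot be told apart in chromatin from whole embryos.

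Strong Antp-eGFP summits were rare at the receptor genes. No member had an IDR summit inside its span (0 of 180, 95% exact binomial interval 0 to 2.03%). The limit of 3 counts for a count of 0 is narrower, up to 1.67%. Of all protein-coding genes 11.8% had an IDR summit inside the span. Of other protein-coding genes with a span of 1 to 2 kb, the length of 127 members, 3.82% did. An IDR summit inside the span or within 1 kb of it was found at 7 members, 3.89% (95% exact binomial interval 1.58 to 7.85), against 30.0% of all protein-coding genes. The 7 were Or46a, Or85f, Or88a, Gr89a, Ir31a, Ir60e and Ir68b. Placed by the nearest transcription start site (TSS), IDR summits fell to 4 members, Gr89a, Gr93a, Gr93d and Or67d, where the share over all protein-coding genes was 20.5%. Intervals cover counting error over genes only.

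The sequences at the summits show what lay under some of the peaks assigned to receptor genes, for 5 of the windows of 101 bp whose summits lie outside annotated genes. They are read on the plus strand of dm6 from the RefSeq assembly, and capitals mark 2 kinds of word in either orientation. The first is the Hox core word, TAAT followed by T or G and then by A or G. The second is TATCGAT, the first 7 letters of the DRE, an element bound by the factor Dref. The windows lie at chr3L:12125131-12125231 (Ir68b), chr3R:14108665-14108765 (Or88a), chr3R:16497489-16497589 (Gr89a), chr2L:10408248-10408348 (Ir31a) and chr3R:21850225-21850325 (a peak 3616 bp upstream of Gr93d).
Ir68b: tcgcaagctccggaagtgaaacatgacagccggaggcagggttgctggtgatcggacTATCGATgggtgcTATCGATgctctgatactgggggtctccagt
Or88a: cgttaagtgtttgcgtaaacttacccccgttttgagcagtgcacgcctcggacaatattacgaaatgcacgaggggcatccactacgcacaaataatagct
Gr89a: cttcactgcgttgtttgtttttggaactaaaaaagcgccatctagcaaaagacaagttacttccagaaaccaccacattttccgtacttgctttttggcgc
Ir31a: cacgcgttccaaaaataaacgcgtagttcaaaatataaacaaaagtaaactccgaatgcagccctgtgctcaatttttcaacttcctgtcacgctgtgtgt
Gr93d: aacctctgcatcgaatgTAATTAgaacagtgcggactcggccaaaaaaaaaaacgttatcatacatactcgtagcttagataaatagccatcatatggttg
The window at Ir68b held TATCGAT at positions 58 and 71 and no Hox core word. The window upstream of Gr93d held 1 Hox core word, at position 18, and the windows at Or88a, Gr89a and Ir31a held neither. Of windows not printed, those at Or85f, Gr93a, Or67d and the other peaks upstream of Gr93d also held neither. The windows at the peaks near Ir60e and Or46a are not reported here. Over all 4351 IDR summit windows of this width, 22.3% held a Hox core word and 5.95% held TATCGAT.

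All 7 peaks near receptor genes had their summit outside the receptor, and 6 of them lay within 500 bp of the TSS of another gene. Over all 4351 IDR summits 54.9% lay within 500 bp of a TSS. The strongest stood beside Ir68b, an ionotropic receptor gene on 3L (12125487 to 12127394, minus strand). Its signal, the authors' peak strength, was 374 (rank 619 in the pooled list), and the peak took ranks 868, 859 and 368 in replicates 1, 2 and 3. The summit lay 306 bp beyond the 3' end of Ir68b and 31 bp from the TSS of yps, which encodes an RNA-binding protein. All 3 replicates thus placed it among their 1000 strongest entries.

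Or88a, an odorant receptor of antennal pheromone-sensing neurons, lies on 3R (14109445 to 14110823, plus strand). The peak next to it had a signal of 295 (rank 973) and ranks of 825, 841 and 1335 in the replicates. Its summit lay 730 bp upstream of Or88a and 394 bp from the TSS of CG12402. Gr89a, on 3R (16497817 to 16498959, minus strand), is one of the receptors shared by many bitter-sensing neurons. Its peak had a signal of 269 (rank 1138), with replicate ranks of 1251, 989 and 1393, and an intergenic summit 278 bp past the 3' end of the gene. The nearest TSS to that summit was that of Gr89a itself, 1420 bp away.

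Ir31a, a receptor of antennal coeloconic neurons, lies on 2L (10405565 to 10408197, plus strand). The peak had a signal of 204 (rank 1715) and replicate ranks of 4527, 1961 and 1075, so replicate 1 ranked it below the length of the IDR list. Its summit was 101 bp past the 3' end of Ir31a and 54 bp from the starts of RpS27A, a ribosomal protein gene, and Ip259. Or85f, on 3R (9398190 to 9399551, plus strand), takes part in the detection of parasitoid wasp odours. The peak had a signal of 161 (rank 2376), ranks of 2819, 1839 and 3133, and a summit 506 bp past the 3' end and 4 bp from the TSS of CG34117.

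Ir60e lies on 2R (24529554 to 24531272, minus strand). Its peak had a signal of 224 (rank 1493) and ranks of 1340, 1830 and 1657, with the summit 26 bp from the TSS of CG13585 and 296 bp upstream of the TSS of Ir60e. Ir60e was the only member with an IDR summit within 500 bp of its own TSS, 1 of 180, against 20.8% of all protein-coding genes. Or46a, a receptor of the maxillary palp on 2R (10139264 to 10142074, plus strand), had the weakest of the 7 peaks, with a signal of 126 (rank 3388) and ranks of 4545, 5119 and 3628. Only replicate 3 placed it inside the 4351 strongest entries. The summit lay 307 bp past the 3' end of Or46a and 43 bp from the TSS of CG18011.

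**Figure D1:**
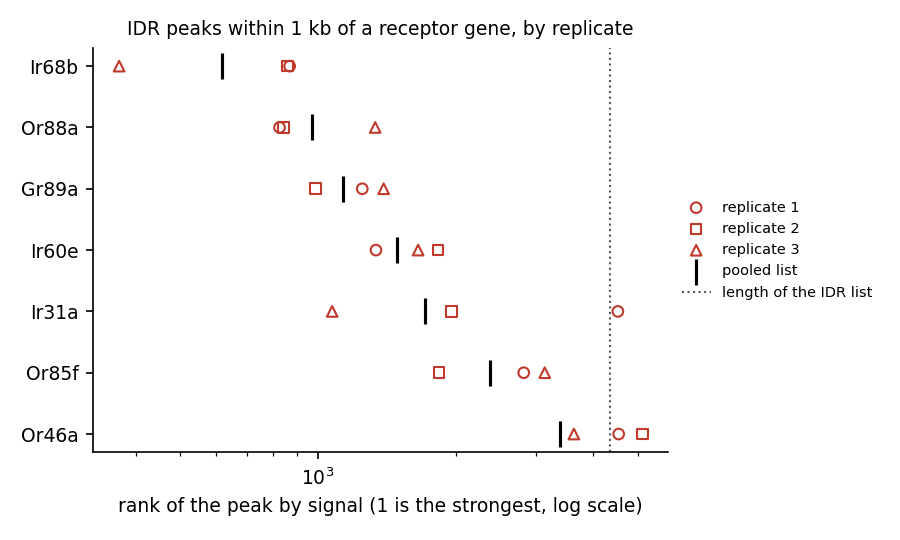
Rank by signal (log scale, 1 is the strongest) of the 7 IDR peaks within 1 kb of a receptor gene, with 1 open symbol per replicate, a bar for the pooled list and a dotted line at the 4351 entries of the IDR list. The peaks by Ir68b, Or88a, Gr89a, Ir60e and Or85f lie left of the line in all 3 replicates, while the peaks by Ir31a and Or46a cross it.

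Among the 4351 strongest entries of each replicate, the rule of span or 1 kb found 6, 6 and 7 members in replicates 1, 2 and 3, where 29.5%, 30.0% and 29.4% of all protein-coding genes were found. The mean share of members was 3.52% ± 0.321 (SD, n = 3), against 29.6% ± 0.336 of all protein-coding genes. Replicate 1 had the sugar receptor gene Gr64a in place of Ir31a and Or46a. The members found in all 3 replicates were Ir60e, Ir68b, Or85f, Or88a and Gr89a, 5 of 180, against 23.4% of all protein-coding genes. Inside the span the count was 0 in each replicate, where the shares over all protein-coding genes were 12.5%, 12.1% and 12.1%.

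IDR summits assigned by nearest TSS lay more than 2 kb from the receptor's start in 3 of the 4 cases. Gr93d, a gustatory receptor gene, had 3 intergenic summits upstream, at 2417, 3616 and 2618 bp from its TSS, with signals of 205, 192 and 165. The first of these had no summit within 100 bp in replicate 2, the second took ranks of 2105, 1819 and 2129, and the third took ranks of 5010, 1640 and 15653. The summit assigned to Gr93a, which is needed for the response to caffeine, lay 4117 bp upstream with a signal of 108 and ranks of 5902, 12221 and 3476. The summit assigned to Or67d, the receptor for the pheromone cis-vaccenyl acetate, lay 11898 bp downstream of its start, had a signal of 125 and took ranks of 3703, 4012 and 3191.

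Distance to the nearest IDR summit was also greater at receptor genes. The median from a member TSS was 16292.5 bp, and it was 24606.5 bp for Or, 11092.5 bp for Gr and 15945.5 bp for Ir genes. Other protein-coding genes had a median of 6857 bp. More than 20 kb separated 79 members (43.9%) from any IDR summit, against 24.2% of other protein-coding genes.

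The empty spans covered 0.472 Mb, in which the density of IDR summits over the 7 arms (31.6 per Mb) would place 14.9 summits. That average takes no account of the kind of sequence. Coding sequence makes up 57.6% of these spans, while 0.689% of IDR entries lay in coding sequence more than 500 bp from a TSS. The 0.472 Mb also includes Ir41a (104437 bp) and Ir40a (24851 bp), which are rich in repeats. A count of 0 allows up to 6.36 per Mb by the limit of 3 counts. Moving outward, IDR summit density was 24.5 per Mb at 0 to 1 kb from a member, 38.8 at 1 to 5 kb, 32.1 at 5 to 20 kb and 32.9 at 20 to 50 kb. Taken over each replicate's top 4351 entries, these bands gave 22.2 ± 2.02, 38.4 ± 2.02, 34.7 ± 1.15 and 33.0 ± 0.714 per Mb (SD, n = 3). Beyond 1 kb the density around receptors was thus at or above that of the arms. The spans of other protein-coding genes held 27.2 per Mb, and the first 1 kb outside them held 164 per Mb. Of the 248 protein-coding genes that flank members without belonging to them, 60 (24.2%) had an IDR summit in the span or within 1 kb and 29 (11.7%) inside the span.

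**Figure D2:**
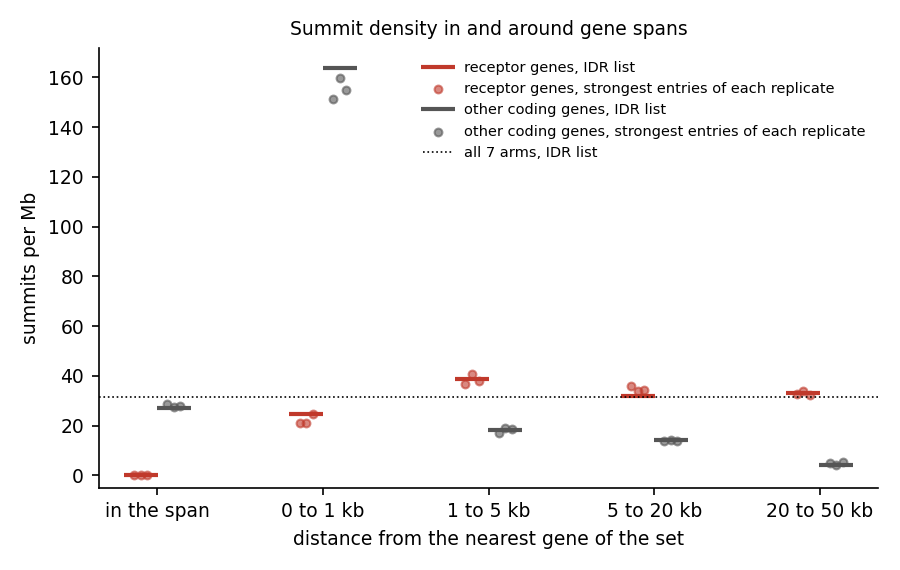
Summits per Mb in and around receptor genes (red) and other protein-coding genes (grey), by distance from the nearest gene of the set, with bars for the IDR list, dots for the 4351 strongest entries of each replicate and a dotted line for all 7 arms. A band leaves out only spans of its own set, so red bands include neighbouring genes, and the red values go from 0 inside the span to 38.8 at 1 to 5 kb.

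Member spans had a median of 1691.5 bp (1143 to 104437 bp), against 2164.5 bp for all protein-coding genes. Of members of 1 to 2 kb, 5 of 127 (3.94%) had an IDR summit in the span or within 1 kb, against 23.9% of other protein-coding genes of that length. At 2 to 5 kb it was 2 of 47 (4.26%) against 32.5%. The 4 members of 5 to 20 kb and the 2 over 20 kb had none, against 44.9% and 56.4% of other genes. Inside the span no member had one, against 3.82% of other genes of 1 to 2 kb and 9.01% at 2 to 5 kb. At 5 to 20 kb and over 20 kb the in-span shares of other genes were 25.5% and 47.5%.

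**Figure D3:**
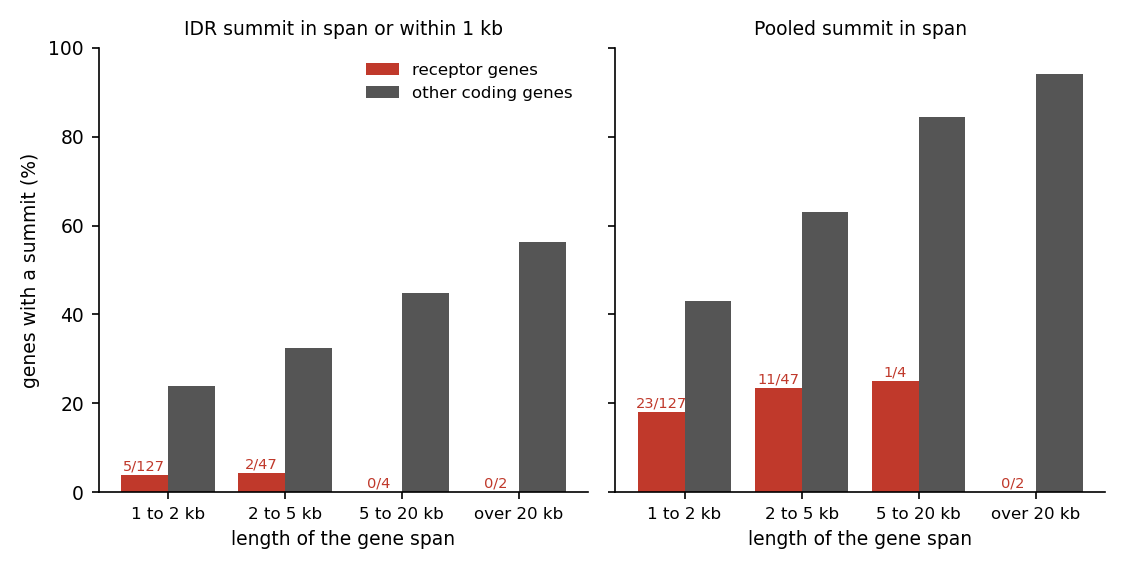
Percent of genes with an IDR summit in the span or within 1 kb (left) and with a pooled summit inside the span (right), by length of the span, for receptor genes (red, with counts) and other protein-coding genes (grey). The red bars are lower in each length class that holds members, with 5 of 127 against 23.9% in the class with most members.

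The 5 longest members were all without an IDR summit in the span or within 5 kb. Over all protein-coding genes 48.7% had one, and 5 genes are too few to set against that share. Ir41a, a receptor for amines, spans 104437 bp and Ir40a, which serves the sense of dry air, spans 24851 bp. Ir93a spans 8237 bp, Gr28b, a receptor linked to light and warmth sensing, 7422 bp, and Gr39a 6953 bp. Soft-masked repeats filled 60.1% of Ir93a, 39.7% of Ir40a and 29.4% of Ir41a, the 3 members over 20%, while the median of members was 5.06% and that of other protein-coding genes 8.47%. Ir41a, Ir40a, Ir93a and Ir10a hold stretches of at least 200 bp that match another place in the genome at 95% identity or more, and Or19a and Or19b match each other at 99.5% over 1370 bp. Reads from such stretches may have been split or dropped, so an empty list there is uncertain.

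The longer lists of 30000 entries, which run deep into background, did reach receptor genes. In the pooled list 35 members (19.4%) had a summit inside the span, against 54.7% of all protein-coding genes. With 1 kb added it was 65 members (36.1%) against 75.0%, and by nearest TSS 70 members (38.9%) against 67.6%. Pooled summits inside the span were found in 12 Or, 10 Gr and 13 Ir genes.

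The replicates gave the same order. Inside the span replicate 1 had 36 members against 56.9% of all protein-coding genes, replicate 2 had 29 against 53.2% and replicate 3 had 46 against 55.2%. With 1 kb added the counts were 76 against 76.3%, 63 against 75.2% and 79 against 75.0%. By nearest TSS they were 84 against 69.3%, 77 against 67.3% and 83 against 67.8%. The mean share of members was 20.6% ± 4.75 inside the span, 40.4% ± 4.72 with 1 kb and 45.2% ± 2.10 by nearest TSS (SD, n = 3), against 55.1% ± 1.85, 75.5% ± 0.687 and 68.1% ± 1.02 of all protein-coding genes. By each of these rules the highest replicate of the members lay below the lowest replicate of all protein-coding genes.

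Few receptor genes were reached by all 3 replicates. Of the members only Ir7g had a summit inside its span in all 3 full lists, 1 of 180 members against 36.9% of all protein-coding genes. Its entries ranked 27936 in replicate 1, 11374 and 20266 in replicate 2 and 11655 in replicate 3, so none was near the top. A summit in 2 replicates was found in 33 members (18.3%) and in 18.1% of other protein-coding genes, and 104 members (57.8%) had none in any replicate against 26.2% of other genes. With 1 kb added, 24 members (13.3%) were reached in all 3 replicates, against 62.2% of other genes.

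Entries inside receptor genes sat low in the ranking. None was among the strongest 5000 entries of the pooled list or of any replicate, where 13.5% of other protein-coding genes already had a pooled summit in the span. Among the strongest 10000 pooled entries 1 member was reached, among 20000 there were 13 and among 30000 there were 35. Other protein-coding genes were reached at 24.8%, 43.6% and 55.2%. The best pooled rank inside the span had a median of 23615 in the 35 members, against 11173 in 7610 other genes with such an entry.

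**Figure D4:**
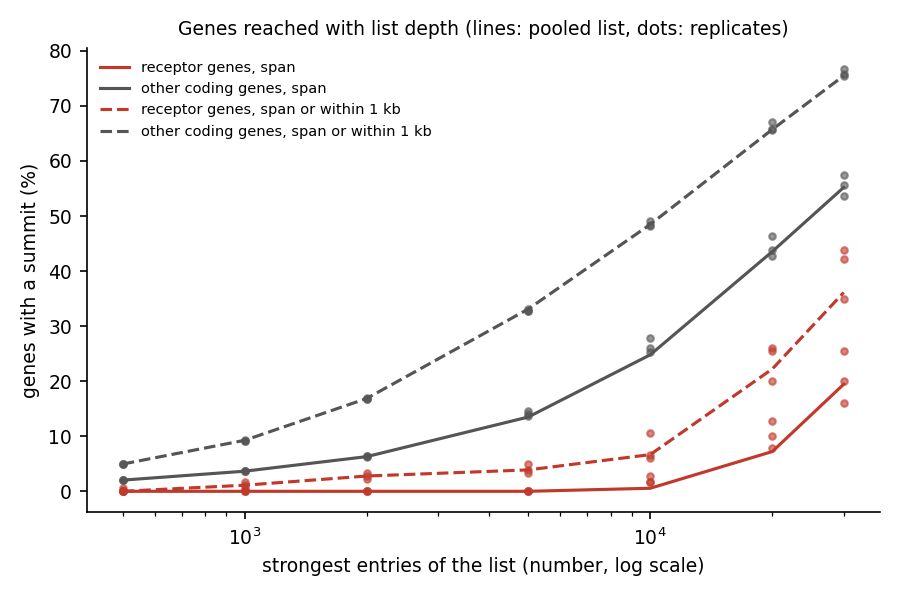
Percent of receptor genes (red) and other protein-coding genes (grey) with a summit inside the span (solid) or within 1 kb (dashed), by the number of strongest entries taken (log scale), with lines for the pooled list and dots for the 3 replicates. The solid red line stays at 0 up to 5000 entries and ends at 19.4%, below the 55.2% of other genes.

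The 37 pooled entries inside member spans, in the authors' deposited values, had signals from 32.2 to 73.0 and −log10 q-values from 0.0669 to 1.28. None had a q-value of 0.05 or less, while 2477 of the 25649 pooled entries outside the IDR list (9.66%) did. None was matched within 100 bp in all 3 replicates, 19 were matched in 2, 13 in 1 and 5 in 0, where 14.3% of pooled entries outside the IDR list and 92.0% of IDR entries were matched in all 3. By position 18 (48.6%) lay within 500 bp of a TSS. Of the rest 15 lay in coding sequence, 3 in introns and 1 in a 3' UTR. Pooled entries outside the IDR list lay within 500 bp of a TSS in 24.0% of cases, and IDR entries in 54.9%. Coding sequence more than 500 bp from a TSS held 40.5% of the entries in member spans. It held 27.5% of pooled entries outside the IDR list and 0.689% of IDR entries. Coding sequence at any distance from a TSS makes up 57.6% of the member spans, so this share cannot be set beside the 40.5%.

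The highest of these entries was in Gr21a, which with Gr63a forms the carbon dioxide receptor. Its summit lay 242 bp into the gene at rank 6887 with a signal of 73.0, and it was matched at rank 10151 in replicate 2 and 5670 in replicate 3 but not in replicate 1. Among members without an IDR summit within 1 kb, next came Ir93a at rank 10548, with a match in replicate 3 alone, and Gr5a, a receptor for trehalose, at 12624. Ir7g followed at 13316, Gr8a, which is needed to sense the plant toxin canavanine, at 13857, and Ir67a at 14404. Ir21a, which serves cool sensing together with Ir25a and Ir93a, stood at 16691, Gr36a at 17275, Gr93c at 17614 and Or42b, a receptor for fruit esters, at 17664. Or46a, which has an IDR summit within 1 kb, had an entry inside its span at rank 13898, 63 bp from its own TSS and matched in replicate 1 alone.

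The co-receptors of the odorant and ionotropic receptors had no IDR summit within 1 kb (0 of 5), and all 5 had a pooled entry there, 4 of them inside the span. Over all protein-coding genes these shares were 30.0%, 75.0% and 54.7%, and 5 genes are too few to set against them. Orco lay 38734 bp from the nearest IDR summit, which was at Polr2F, and its pooled entry at rank 10598, 743 bp upstream of the TSS, was matched in replicate 2 alone. Ir8a lay 7033 bp from the nearest IDR summit, at mxc, and its in-span pooled entry ranked 29532. Ir76b lay 73921 bp and Ir93a 29462 bp away.

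Ir25a lay nearest, 2572 bp from a summit at the promoter of its neighbour tank. That peak was among the strongest of the list, with a signal of 1493 (rank 39) and ranks of 38, 45 and 32 in the replicates. Inside Ir25a itself the pooled entry had a signal of 33.9 and rank 27358. A strong peak and a receptor gene with 1 low entry stood less than 5 kb apart.

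For carbon dioxide, Gr63a lay 2558 bp from an IDR summit at Ccz1 (signal 205) and Gr21a 38438 bp from one. For bitter taste, Gr66a lay 2187 bp from a summit at BI-1 (signal 156), Gr33a lay 34336 bp from one, and neither had a pooled entry within 1 kb. Of the 5 commonly co-expressed bitter receptors Gr89a alone had an IDR summit within 1 kb. The 9 sugar receptors had none, and 3 of them had a pooled entry within 1 kb. The 25 odorant receptors used by larvae had none, with 9 reached by the pooled list, and of the 19 antennal ionotropic receptors 1, Ir31a, had one, with 11 reached by the pooled list. Over all protein-coding genes the same rule of span or 1 kb gave 30.0% in the IDR list and 75.0% in the pooled list.

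With 5 kb added to the span the pooled list reached 139 members (77.2%), against 91.4% of all protein-coding genes, and 41 members had no entry there. The farthest from any pooled summit was Ir41a, at 87256 bp from its TSS, followed by Or19b at 34638 bp, Ir84a, a receptor for phenylacetic acid, at 32796 bp, Ir20a at 25303 bp and Gr23a at 14806 bp. Ir41a was also 840345 bp from the nearest IDR summit.

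Receptor genes often sit side by side. Of the members, 79 stood in 28 groups with at most 5 kb between neighbours, the largest being the 6 sugar receptor genes Gr64a to Gr64f. The span of 30 members lay within that of another protein-coding gene, with equal spans and other members included. The share among other genes is not given here. Such neighbours share summits. The pairs Gr64b and Gr64c, and Or10a and Gr10a, have the same annotated span and are counted among the 30. By arm, X had 0 of 25 members with an IDR summit in the span or within 1 kb, against 32.4% of its protein-coding genes. The counts were 1 of 31 on 2L (27.7%), 1 of 35 on 3L (29.8%), 2 of 46 on 2R (29.1%) and 3 of 43 on 3R (31.8%).

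Other genes of chemosensation were read by the same rule of an IDR summit in the span or within 1 kb. Odorant-binding proteins, which carry odours in the fluid around sensory neurons, had 4 of 51 (7.84%), led by Obp99b with a signal of 350. Pickpocket channels, a sodium channel family with members in taste and touch, had 6 of 30 (20%), led by ppk6 (483), rpk (434) and ppk7 (258). Those summits lay outside the genes and nearest the TSSs of Hacl, Karybeta3 and CG9498. The CheA and CheB genes had 3 of 20 (15.0%), and the sensory neuron membrane proteins 0 of 2. Ionotropic glutamate receptors outside the Ir family had 2 of 13 (15.4%), Nmdar1 (249) and Nmdar2 (137). The summit inside Nmdar1 was nearest the TSS of Itpr, and that beside Nmdar2 lay 12 bp from the TSS of sta. Regulators of sensory neuron fate and receptor choice had 3 of 16 (18.8%), Xbp1 (180), sim (173) and dac (122). The Myb-MuvB complex, a repressor complex that takes part in receptor choice, had 7 of 10 (70.0%), led by Dp (737), lin-52 (189) and Rbf2 (173). The summit beside lin-52 lay 24 bp from the TSS of CG15771, and only 3 of the 10 genes had an IDR summit by nearest TSS. Median spans were only 788 bp for odorant-binding proteins and 789.5 bp for CheA and CheB genes. Of protein-coding genes under 1 kb, none of which were receptors, 12.8% had such a summit. CheB93a and CheB93b were counted for the same summit. Each list was small, and all but the last 1 stood below the 30.0% of all protein-coding genes, a share not matched for length. By nearest TSS the counts for these lists, in the same order, were 2, 1, 2, 0, 0, 3 and 3, against 20.5% of all protein-coding genes.

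Promoter letters of receptor genes differed from those of all protein-coding genes in both directions, before any split by annotation. In the window from 250 bp before to 50 bp after the annotated start, both strands read, the DRE (TATCGATA) was found in 1 member, Gr68a (0.556%), against 9.36% of all protein-coding genes. The core GGTCACAC of the motif called Ohler 1 was found in 0 against 7.70%. A TATA box (TATAAA) was found in 54.4% against 45.9%, with 47 of 60 Or, 18 of 60 Gr and 33 of 60 Ir genes. The initiator, TCAGT followed by T or C, was found in 32.2% against 35.1%, GAGAG in 20.6% against 29.8% and the E-box CAGCTG in 9.44% against 17.7%. TATCGAT is part of the DRE, and TATAAA and the Hox core words may overlap each other.

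A Hox core word, the letters read by Antp and many other homeodomain proteins, stood in 156 member windows, 86.7% (95% exact binomial interval 80.8 to 91.3), against 55.3% of all protein-coding genes. The mean GC content was nearly equal, 39.6% and 39.1%. The annotation bears on these shares, because 130 members (72.2%) have no annotated 5' UTR, against 2.70% of other genes, and their windows are set by the start codon. Among the 50 members with a 5' UTR 70.0% held a Hox core word, against 54.6% of all protein-coding genes with one. Among the 130 without it was 93.1%, against 68.3% of the 372 other genes without. For the DRE, Ohler 1 core, GAGAG and E-box, members and other genes without a 5' UTR lay closer together than the full sets. They held the DRE in 0.769% and 1.34% and the Ohler 1 core in 0 and 0.538%. GAGAG stood in 17.7% and 21.0% and the E-box in 7.69% and 8.87%. The TATA box stood in 53.1% and 44.6%, and the initiator in 33.8% and 40.9%. With a 5' UTR, members held the DRE and the Ohler 1 core in 0, against 9.67% and 7.97%. A match is a run of letters and not a measured site.

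**Figure D5:**
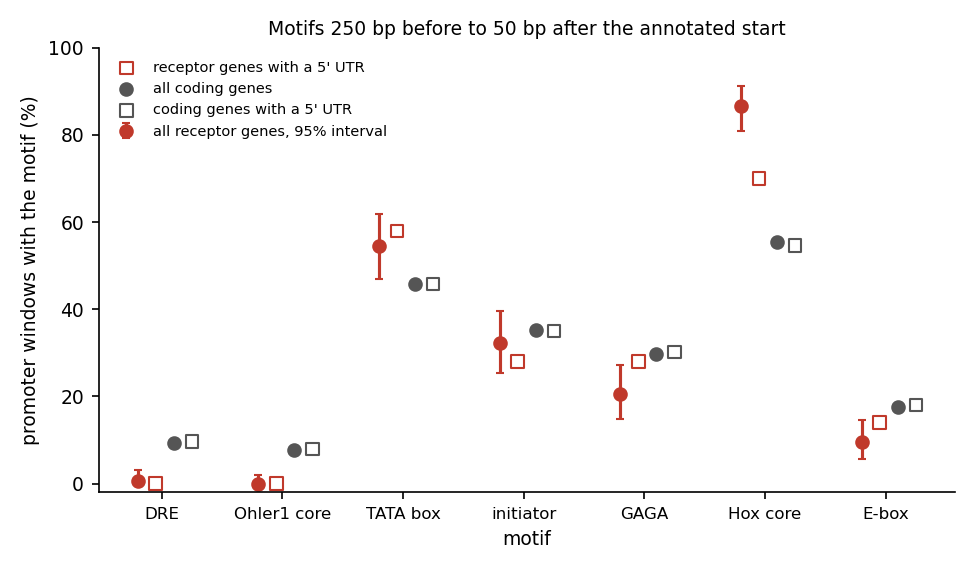
Percent of windows from 250 bp before to 50 bp after the annotated start that hold each motif, for all receptor genes (red dots with 95% exact binomial intervals), receptor genes with an annotated 5' UTR (red squares), all protein-coding genes (grey dots) and those with a 5' UTR (grey squares). The Hox core word stood in 86.7% of member windows but in 70.0% of those with a 5' UTR, and the DRE in 0.556%.

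Stretches of 100 bp directly upstream of the TSS show these letters at 4 receptor genes with an annotated 5' UTR, on the strand of the gene, with Hox core words in capitals. They lie in dm6 at chr3R:5412407-5412506 (Orco, minus strand), chr2L:780382-780481 (Gr21a, plus strand), chr2L:12137908-12138007 (Gr33a, plus strand) and chr2L:10405465-10405564 (Ir31a, plus strand).
Orco: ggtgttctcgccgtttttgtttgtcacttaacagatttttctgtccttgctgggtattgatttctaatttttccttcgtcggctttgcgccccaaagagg
Gr21a: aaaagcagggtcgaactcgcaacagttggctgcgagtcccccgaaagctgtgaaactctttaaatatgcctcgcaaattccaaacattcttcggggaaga
Gr33a: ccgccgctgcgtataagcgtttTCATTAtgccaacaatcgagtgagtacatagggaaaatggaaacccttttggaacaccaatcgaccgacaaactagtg
Ir31a: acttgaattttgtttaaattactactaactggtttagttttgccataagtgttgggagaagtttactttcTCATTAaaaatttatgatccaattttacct
Gr33a and Ir31a each held 1 word, in reverse orientation, at positions 23 and 71, and neither had an IDR summit in these stretches. Over all 180 members, with or without a 5' UTR, 53.3% of the stretches of 100 bp held a Hox core word. It was 19.9% upstream of all protein-coding genes and 22.3% in the IDR summit windows. For the 130 members without a 5' UTR the stretch lies before the start codon, and these shares were not split by 5' UTR.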

How the data were processed

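Peak lists from ChIP-seq on Antp-eGFP embryos were used (3 biological replicates). Per the labels, the authors called a list for each replicate with a control as background, a further list on pooled reads, and the IDR list from these. Which programs aligned reads and called peaks, and the cutoff for IDR, is not given in the sources used here. The signal of each entry and its −log10 q-value are the values the authors deposited. Signals were used within a list only. The IDR list equals the 4351 strongest pooled entries. Lists in dm3 were not used here.

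Summits were placed on Ensembl release 115 gene models (dm6, 1-based coordinates), over 13968 protein-coding genes on 7 arms, with Python 3.11.15, numpy 2.4.6, pandas 2.3.3 and blastn 2.17.0. A gene was counted with a summit in the span, in the span or within 1 kb, or at the nearest TSS of any gene. Replicate entries were matched to a summit within 100 bp. Sequences are RefSeq's dm6. Placement was tested on simulated summits. No group comparison exists, so no test was run. Members, lists and motifs were chosen with earlier results of these data known. The text names members with IDR summits, co-receptors, the carbon dioxide pair, Gr33a and Gr66a, the 10 members with the best pooled entries in a span among those without an IDR summit within 1 kb, the 5 longest and the 5 farthest members, and up to 3 genes per list. Genes beside a named peak, the entry in Or46a, and Gr68a, Gr64a, Gr64b, Gr64c, Or10a, Gr10a, Or19a and Ir10a, were named after their values were seen. The TATCGAT search and the split by 5' UTR were added after the data were seen.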

Additional observations from a re-analysis of the deposited data

How the results depend on the processing

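Of 52 alternatives, 28 left the value close to that reported. No test was run, and no paired analysis was possible because there is 1 group. Members with an IDR summit nearby numbered 12 with 2 kb (35.5% of all protein-coding genes) and 37 with 5 kb (48.7%). Counting any overlap of the peak gave 1 member inside the span, Ir31a, against 20.7%. By nearest TSS, a limit of 1 kb left 0 members (16.6%) and the 2175 strongest IDR entries left 2 (11.7%). In the pooled list, the strongest 10000 and 20000 entries gave 12 (47.9%) and 40 (65.2%), no extension gave 35 (54.7%) and 5 kb gave 139 (91.4%). Members in all 3 replicates numbered 0 with no extension (8.67%) and 28 with 5 kb (40.1%). Leaving out 1 replicate gave 5 to 6 members, and mean shares over the full lists of 38.6% to 43.1%. With the strongest entries only the mean share was 3.52%. Taking these 2175 entries raised the median distance to 32256 bp.

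With windows from 100 bp, the TATA box was found in 37.2% (24.1% of all protein-coding genes), GAGAG in 11.7% (18.1%), the Hox core in 61.7% (25.6%) and the E-box in 5.56% (12.1%). From 500 bp these were 66.7% (63.5%) for the TATA box, 43.9% (48.9%) for the initiator, 35.0% (44.2%) for GAGAG and 95.6% (78.9%) for the Hox core. In members with a 5' UTR, an alternative chosen after seeing the data, the DRE was found in 0 (9.67%), GAGAG in 28.0% (30.1%) and the Hox core in 70.0% (54.6%). The cause of these shifts was not tested. Under each count alternative the members stayed below the share of all protein-coding genes. The lists hold no read counts, so depth sets no stated limit here.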

Other observations

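TATCGAT, the letters found in the summit window beside Ir68b, stood in 5.95% of all IDR summit windows of 101 bp. Directly upstream of the annotated start, over 100 bp, it stood in 1.11% of receptor genes and in 12.2% of all protein-coding genes. These shares were not split by 5' UTR, which 130 receptor genes lack. With 2 kb added to the span, 5 further receptor genes had an IDR summit, namely Gr5a, Gr94a, Gr97a, Ir7g and Or9a. At Or9a the peak midpoint already lay within 1 kb of the span.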
